A study of Mus musculus with 2 samples.

Results

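The genes described here are 40 replication and mitosis genes, chosen by symbol, out of 31053 genes in the deposited count matrix. They comprise 3 cyclins that act before S phase (Ccne1, Ccne2 and Ccnd1), 15 genes of DNA replication and 22 genes of mitosis. All 40 symbols matched exactly 1 feature, all are protein-coding genes, and all were detected, in from 1.92% (Ccne1) to 28.9% (Ccnd1) of the cells kept. The cells came from the olfactory epithelium of male C57BL/6 mice with 1 nostril closed from postnatal day 14 on, sampled at postnatal day 28. The closed (L) side and the open (R) side each gave 1 droplet library of frozen, dissociated cells after removal of dead cells, and no genotype other than the strain is given. The matrix marks its 2 libraries by a barcode suffix that no label ties to a side, so they are called library 1 and library 2, and no value is assigned to the closed or the open side. The open side belongs to an occluded animal and is not an untreated control. The labels speak of a mouse in their protocol and of mice in the series text, so how many animals the libraries hold is not known.

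A dividing cell first passes a G1 checkpoint at which D cyclins and then E cyclins switch on kinases that release the E2F factors. It then fires the MCM helicase, copies its DNA in S phase, and condenses its chromosomes and builds the spindle in mitosis. In the olfactory epithelium, neurons are renewed throughout life. Globose basal cells are the cycling progenitors of that lineage, horizontal basal cells are a largely quiescent reserve, and the intermediate precursors and neurons that follow leave the cycle. Blood and marrow cells caught in the tissue can also divide. Many genes called mitotic here, among them Mki67 and Top2a, are already transcribed in late S phase, so the names of the lists describe what the proteins do and not a sharp stage.

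The kept cells numbered 3032 in library 1 and 5266 in library 2, with medians of 5528 and 5140 UMIs (unique transcript tags) per cell and totals of 21444390 and 37996298 UMIs. A total of 12 barcode sequences occurred in both libraries, 6 of them among kept cells. Cells were grouped into 37 clusters computed without the 40 members and the other cycle genes, so that these genes did not draw the borders, and clusters were named from listed markers with the ending "-like". The 448 globose basal-like cells were cluster 8 (245 cells, with Hes6 and Mybl1 among its leading genes) and cluster 11 (203 cells, led by Neurod1, Mfng and Neurog1). Cluster 11 held as many precursor as globose basal markers among its 10 leading genes, 2 of each. Among its 100 leading genes it held 5 precursor and 6 globose basal markers. Of the 37 clusters, 8 carried no name. With 1 library per side there are no replicates, so no p-value or standard error is given, and every interval is an exact 95% interval that covers counting error only. A doublet caller marked 0.976% of kept cells, and these were kept.

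The mitotic and the replication genes also differed in the short sequence words that lie before their starts. In RefSeq windows (GRCm38.p6) of 300 bases, from 250 before to 50 after a gene's start, 3 kinds of word were searched on both strands. These were the CHR words TTTGAA and TTCGAA, the CCAAT word, and 4 words of the E2F type, TTTGGCGC, TTTCCCGC, TTTCGCGC and TTTGCCGC. The CHR is bound by the DREAM complex and by B-Myb and FOXM1 complexes, CCAAT by NF-Y, and E2F words by the E2F family, as background. A CHR word was found in 13 of 18 mitotic members with a window (72.2%), in 2 of 13 replication members (15.4%) and in 19.4% of 27025 genes. CCAAT was found in 16 of 18 (88.9%), 9 of 13 (69.2%) and 37.9%, and an E2F word in 2 of 18 (11.1%), 5 of 13 (38.5%) and 2.32%. CHR and CCAAT stood together in 13 of 18 mitotic windows, against 2 of 13 replication windows and 7.70% of all genes. Of the G1 cyclins, Ccne1 alone had a window, and it held none of the words.
The bases just before the start are printed for 4 mitotic members with a CHR and a CCAAT word and for 2 replication members with an E2F word, because they carry the contrast between the lists. Letters in capitals are the searched words on either strand, overlapping matches run together, and the strand is that of the gene. The stretches are chr11:99024190-99024321 (minus) for Top2a, chr10:69352913-69353044 (minus) for Cdk1, chr2:164769797-164769928 (plus) for Ube2c, chr4:118437344-118437475 (minus) for Cdc20, chr1:128359706-128359837 (minus) for Mcm6 and chr19:38930858-38930989 (plus) for Hells.
Top2a: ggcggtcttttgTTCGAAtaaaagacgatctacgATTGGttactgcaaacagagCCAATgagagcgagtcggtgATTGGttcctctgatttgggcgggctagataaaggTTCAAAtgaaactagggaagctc
Cdk1: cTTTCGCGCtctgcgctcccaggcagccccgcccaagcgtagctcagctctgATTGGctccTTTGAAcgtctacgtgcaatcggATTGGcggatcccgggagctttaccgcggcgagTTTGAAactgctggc
Ube2c: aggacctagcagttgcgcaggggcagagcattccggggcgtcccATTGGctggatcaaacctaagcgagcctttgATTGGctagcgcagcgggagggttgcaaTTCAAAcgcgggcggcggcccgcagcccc
Cdc20: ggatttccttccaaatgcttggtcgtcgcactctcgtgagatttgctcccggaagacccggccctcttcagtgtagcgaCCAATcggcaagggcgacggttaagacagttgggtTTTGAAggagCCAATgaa
Mcm6: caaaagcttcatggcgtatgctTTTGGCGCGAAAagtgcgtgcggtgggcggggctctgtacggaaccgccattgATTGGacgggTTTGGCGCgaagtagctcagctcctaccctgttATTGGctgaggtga
Hells: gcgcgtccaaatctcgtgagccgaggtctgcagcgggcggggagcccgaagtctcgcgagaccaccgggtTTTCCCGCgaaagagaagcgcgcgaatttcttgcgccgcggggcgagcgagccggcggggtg
Top2a and Cdk1 show several CHR and CCAAT words within the stretch, Ube2c and Cdc20 have 1 CHR word each near the start, and Mcm6 and Hells hold E2F words and no CHR word. Cdk1 also holds an E2F word, so the words do not divide the lists cleanly. A match describes letters and is not evidence of binding in these cells.

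To ask which cells express the cycle, the members were first compared between globose basal-like cells and the 930 mature olfactory neuron-like cells, which have left the cycle. Every one of the 40 members was 2-fold or more higher in globose basal-like cells, against 18.6% of all genes tested, and none was 2-fold lower, against 31.4%. Levels are CPM, UMIs of a gene per 1000000 UMIs summed over a class, and since these are 3′ tags they are not scaled by gene length. The median log2 ratio, after adding 1 CPM, was 4.02 for the G1 cyclins, 4.76 for the replication members and 6.28 for the mitotic members, and -0.26 over all genes tested. With the 4 mitotic members that had no UMI in the neurons (Aurkb, Bub1, Pbk and Hmmr) set at the floor of 3 UMIs, the mitotic median was 6.14.

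**Figure D1:**
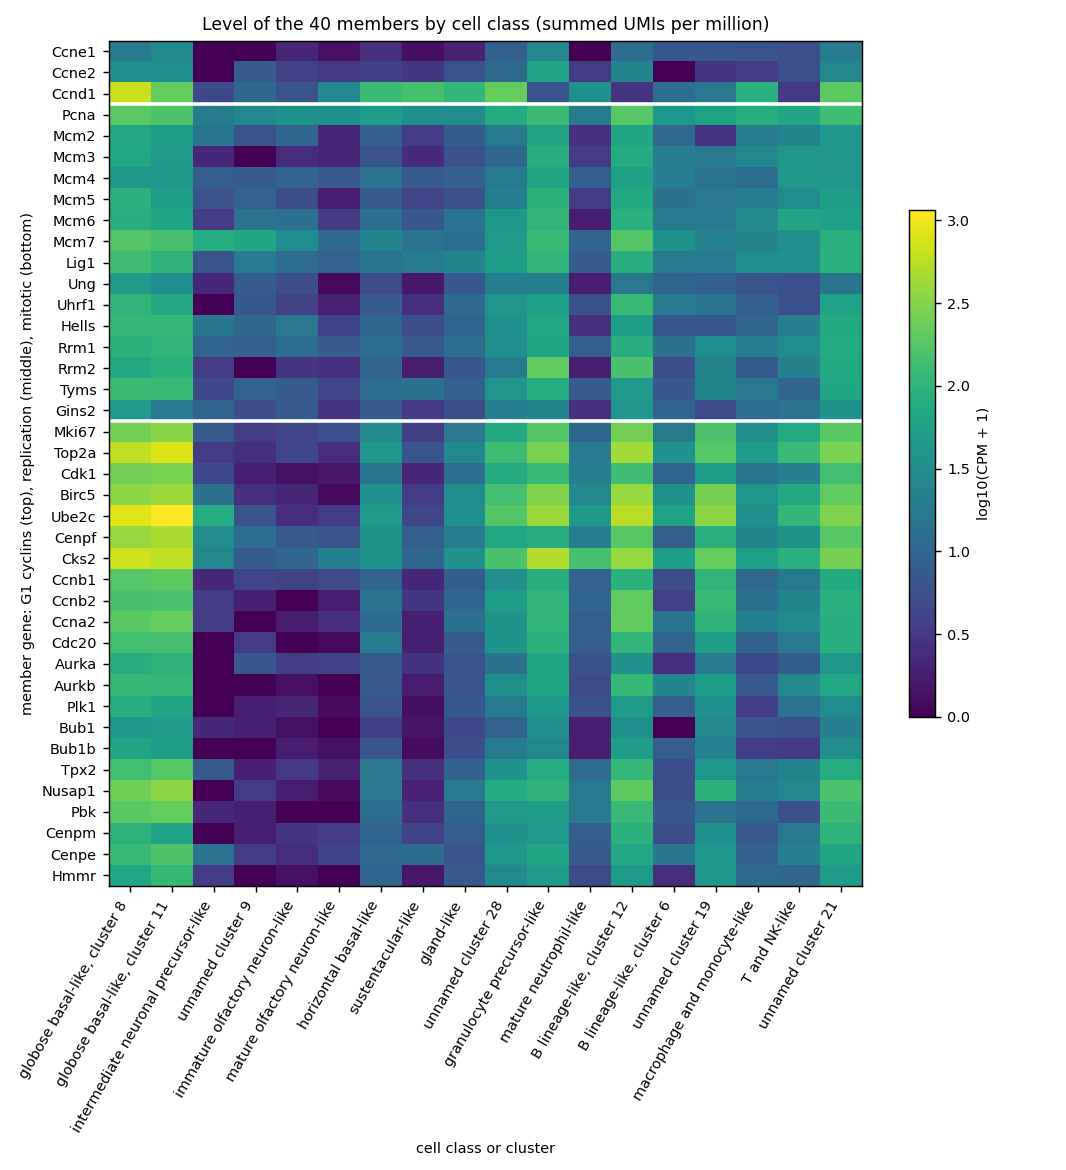
Level of each of the 40 members (rows, as log10 of CPM + 1, UMIs summed over all cells of a class) in 18 classes or clusters (columns). White lines separate the 3 G1 cyclins, the 15 replication genes and the 22 mitotic genes, and the brightest columns are the globose basal-like clusters 8 and 11, B lineage-like cluster 12, the granulocyte precursor-like cells and unnamed cluster 21.

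Among the G1 cyclins, Ccnd1 (cyclin D1, which starts the G1 kinases; chr7:144929931-144939925, minus strand) reached 492 CPM in globose basal-like cells and 26.0 CPM in mature olfactory neuron-like cells. Its level was uneven along the lineage, with 661 CPM in cluster 8, 217 in cluster 11 and 3.78 in intermediate neuronal precursor-like cells. Ccnd1 was also at 122 CPM in horizontal basal-like, 147 in sustentacular-like, 105 in gland-like and 139 in ionocyte-type microvillous-like cells, classes with few mitotic cells. Ccne1 and Ccne2, the E cyclins that trigger S phase, stood at 21.2 and 32.4 CPM in globose basal-like cells and at 0.371 and 2.23 CPM in mature neurons. Ccnd1 was thus spread over many epithelial classes. The E cyclins reached at most 13.6 CPM (Ccne2 in ionocyte-type microvillous-like cells) in the other named epithelial classes.

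The replication members ran from 35.9 CPM (Gins2, a subunit of the GINS part of the helicase) to 183 CPM (Pcna, the sliding clamp of the polymerases) in globose basal-like cells. The MCM helicase subunits were at 62.4 (Mcm2), 57.1 (Mcm3), 41.8 (Mcm4), 74.6 (Mcm5), 74.6 (Mcm6) and 165 CPM (Mcm7). Their levels in mature neurons were 1.11, 1.11, 6.68, 0.742, 2.23 and 10.2 CPM in the same order. Lig1, which seals nicks in newly copied strands, was at 118 CPM against 8.34. Ung, which removes uracil from DNA, was at 38.3 against 0.185, with 1 UMI in all mature neurons. Uhrf1, which brings the maintenance methyltransferase to new DNA, was at 88.9 against 0.927, and Hells, a chromatin remodeller, at 112 against 3.15. The genes that make DNA precursors were at 95.7 (Rrm1), 78.8 (Rrm2) and 121 CPM (Tyms), against 6.86, 1.67 and 3.34. Pcna was at 35.4 CPM in mature neurons, a log2 ratio of 2.34 and the lowest of the 40 in that comparison, and between 17.2 and 83.6 CPM in the named classes with few mitotic cells that the heat map shows.

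The mitotic members ran from 44.2 CPM (Bub1) to 950.4 CPM (Ube2c) in globose basal-like cells. Among the genes of chromosome structure, Top2a, the topoisomerase that untangles chromosomes, was at 660 CPM against 1.48 in mature neurons, and Mki67, which coats mitotic chromosomes, at 289.8 against 4.64. Cdk1, the mitotic kinase, and its cyclins Ccnb1, Ccnb2 and Ccna2 were at 272, 186, 155 and 201 CPM, against 0.556, 4.08, 0.742 and 1.67. Of the genes that drive exit from mitosis, Ube2c and Cdc20, which act in the anaphase-promoting complex, were at 950.4 and 139 CPM against 2.41 and 0.185. The chromosomal passenger genes Birc5 and Aurkb were at 374 and 110.3 CPM, against 0.185 and 0. The spindle and checkpoint genes Aurka, Plk1, Tpx2, Nusap1, Hmmr, Bub1, Bub1b, Cenpe and Cenpf lay between 44.2 and 419 CPM, against at most 5.01 in the neurons. Cks2, which binds cyclin-dependent kinases, stood at 656 CPM in globose basal-like cells. Cks2 was at 20.2 CPM in mature neurons and at 148 CPM in mature neutrophil-like cells, where the other mitotic members were at 41.8 CPM or less.

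To count dividing cells rather than transcripts, every cell was thinned to 2000 UMIs, and a cell with 3 or more UMIs over the 22 mitotic members was called mitotic-positive, or replication-positive over the 15 replication members. The term stands for this count and not for a seen mitosis. Of all 7419 cells deep enough, 600 were mitotic-positive (8.09%, 7.48 to 8.73%) and 395 replication-positive (5.32%). Mature olfactory neuron-like cells give the background, with 4 of 910 mitotic-positive (0.440%, 0.120 to 1.12%, median depth 5018 UMIs) and 2 of 910 replication-positive (0.220%). In globose basal-like cells 333 of 443 were mitotic-positive, or 75.2% (70.9 to 79.1%, median depth 9402 UMIs), and 196 were replication-positive, or 44.2% (39.6 to 49.0%). Without thinning, 88.6% were mitotic-positive, against 1.18% of the mature neurons, and 85.0% were replication-positive, against 2.90%. The cut fell in a thin part of the distribution for the mitotic list, with 29 globose basal-like cells at 2 UMIs and 15 at 3, and in a filled part for the replication list, with 74 at 2 and 54 at 3.

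**Figure D2:**
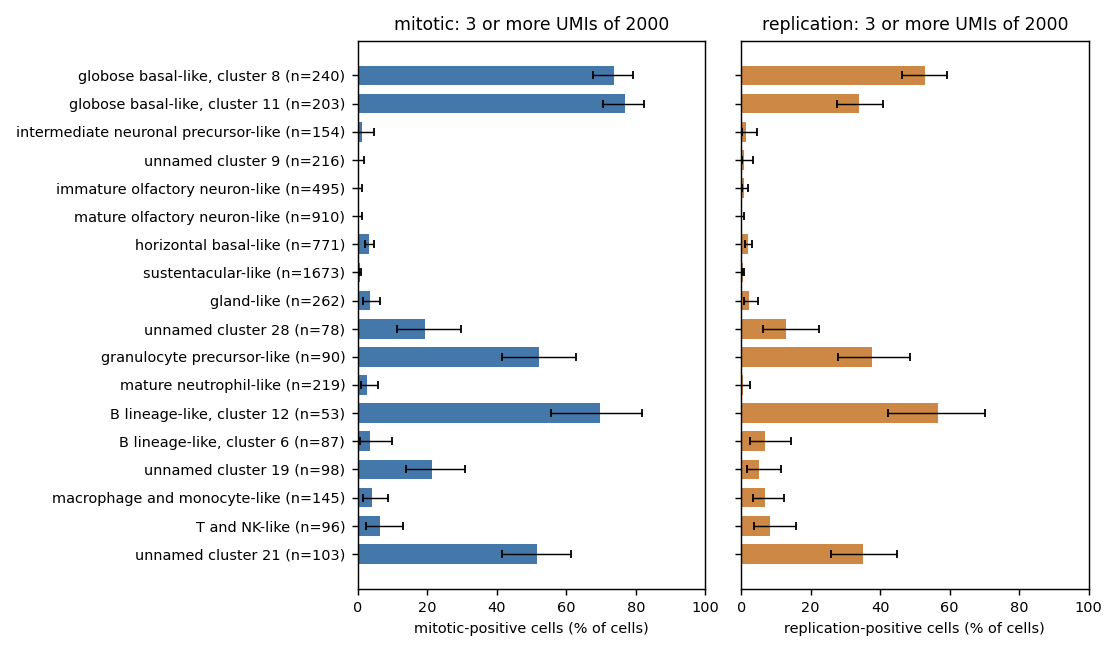
Share of mitotic-positive (left) and replication-positive cells (right) in percent of the cells thinned to 2000 UMIs, for each class or cluster with its number of cells. Error bars are exact 95% binomial intervals for counting error, and the globose basal-like clusters stand at 73.8% and 76.8% mitotic-positive against 0.440% in mature olfactory neurons.

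Both globose basal-like clusters held mostly mitotic-positive cells, 177 of 240 in cluster 8 (73.8%, 67.7 to 79.2%) and 156 of 203 in cluster 11 (76.8%, 70.4 to 82.5%). They differed in the replication list, with 127 of 240 positive in cluster 8 (52.9%, 46.4 to 59.4%) and 69 of 203 in cluster 11 (34.0%, 27.5 to 41.0%), so these intervals do not overlap. Gene by gene, 12 of 15 replication members were higher in cluster 8 and 17 of 22 mitotic members higher in cluster 11, with median log2 ratios of 0.38 and -0.18. These were small shifts. Only Ccnd1 (log2 ratio 1.60) and Gins2 (48.1 against 16.1 CPM, 1.52) were 2-fold higher in cluster 8, where 6.65% of all genes were so, and no member was 2-fold lower, where 9.77% of all genes were. Hmmr, a spindle protein, was at 65.4 CPM in cluster 8 and 112 in cluster 11, and Cenpm, a centromere protein, at 94.4 and 58.1.

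Horizontal basal-like cells divided rarely by this measure. Of 771, 25 were mitotic-positive (3.24%, 2.11 to 4.75%) and 15 replication-positive (1.95%, 1.09 to 3.19%), and clusters 4 and 5 of this class stood at 3.39% and 3.07% mitotic-positive. The mitotic share lies above the 0.440% of mature neurons, with intervals that do not overlap. Among cells with at most 5% mitochondrial UMIs the share was 8.24%. All 40 members were 2-fold or more lower there than in globose basal-like cells, when 18.7% of all genes were lower and 23.3% higher there. Top2a was at 41.1 CPM, Mki67 at 25.6 and Ube2c at 42.8, and the mitotic list summed to 380.3 CPM against 5614 in globose basal-like cells. The 25 mitotic-positive cells had a median of 8771 UMIs and a median doublet score of 0.0628, the other 746 a median of 4444 UMIs and 0.00808. The part of depth and doublets in this share was not tested.

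Dividing cells were also found in the blood lineages. The 90 granulocyte precursor-like cells (led by Elane, Prtn3 and Mpo, enzymes of the early granules) held 47 mitotic-positive (52.2%, 41.4 to 62.9%) and 34 replication-positive cells (37.8%). Mature neutrophil-like cells held 6 of 219 mitotic-positive (2.74%, 1.01 to 5.87%) and 1 replication-positive. In B lineage-like cluster 12, led by the surrogate light chain genes Vpreb3, Igll1 and Vpreb1, 37 of 53 cells were mitotic-positive (69.8%, 55.7 to 81.7%) and 30 replication-positive (56.6%). In cluster 6 of the same lineage, led by Igkc and Iglc2, the counts were 3 and 6 of 87. The share in cluster 12 covers few of its cells. Thinning left out 149 of its 202 cells as too shallow, and over all 202 at their own depth, a median of 1464 UMIs, 20.8% had 3 or more mitotic UMIs. Among the 53 deep cells the mitotic-positive had a median of 4631 UMIs and the rest 2546.

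Set against the mature cells of their own lineage, 39 of 40 members were 2-fold or more higher in granulocyte precursor-like than in mature neutrophil-like cells, when 27% of all genes were. The exception was Ccnd1, at 5.33 against 34.4 CPM. Rrm2, a subunit of ribonucleotide reductase, showed the highest log2 ratio, 6.83, at 206 against 0.819 CPM, but the latter rests on 1 UMI. In cluster 12 against cluster 6, 37 of 40 members were 2-fold higher, when 14.7% of all genes were, with medians of 2.26 for the replication and 3.80 for the mitotic members (3.75 with Bub1, at 0 in cluster 6, at the floor). Ccne1 and Ung were higher by less than 2-fold, and Ccnd1 was lower, at 1.92 CPM (1 UMI) against 11.9.

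The classes with many cycling cells were then set side by side. The 15 replication genes summed to 1348 CPM in globose basal-like cells, 1292 in cluster 12 and 1260.4 in granulocyte precursor-like cells, and the 22 mitotic genes to 5614, 3831 and 2848 CPM. Cenpf, a kinetochore protein, was at 419, 183 and 79.96 CPM, and Pbk, a mitotic kinase, at 202, 115 and 49.5. The list's order was not the same for every gene, since Rrm2 was at 78.8, 152 and 206 CPM. Ccnd1 differed most, at 492, 1.92 and 5.33 CPM, with log2 ratios to globose basal-like cells of -7.40 and -6.28. In cluster 12 against globose basal-like cells 0 members were 2-fold higher and 8 lower, where 14.6% and 27.2% of all genes were, and in granulocyte precursor-like cells 1 was higher and 10 lower, where 12.8% and 40.3% were. These shares of members called lower are below those of all genes, and the median of the mitotic members in granulocyte precursor-like cells, -0.90, stands beside a median of -0.74 over all genes, so the counts show nothing particular to the members.

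The other D cyclins, outside the 40, also differed in RNA level between classes. Ccnd2 and Ccnd3 were at 4.60 and 5.25 CPM in globose basal-like cells. Ccnd3 was at 290.3 CPM in cluster 12, 229 in granulocyte precursor-like cells and 252 in mature neutrophil-like cells, and Ccnd2 at 86.5, 49.5 and 7.37. Blood classes were not alike, since Ccnd1 was at 175 CPM in dendritic-like, 86.2 in macrophage and monocyte-like and 2.30 in T and NK-like cells. Horizontal basal-like cells were high in Ccnd2, at 407 CPM, with Ccnd1 at 122 and Ccnd3 at 77.8. Their partner kinase Cdk4 was at 823 CPM in globose basal-like cells, 252 in cluster 12, 225 in granulocyte precursor-like and 122 in horizontal basal-like cells.

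Several unnamed clusters held cycling cells. Cluster 21, whose leading genes mixed platelet and haemoglobin genes (Ppbp, Pf4 and Hbb-bs), had 53 of 103 cells mitotic-positive (51.5%, 41.4 to 61.4%) and 36 replication-positive (35.0%). It also held Sox2 at 367 CPM, and its median doublet score was 0.0862 in mitotic-positive and 0.0656 in other cells. Cluster 19, led by Ccl6, Ms4a6c and Ccr2, genes of monocytes, had 21 of 98 mitotic-positive cells (21.4%, 13.8 to 30.9%) but 5 replication-positive (5.10%). Its mitotic-positive cells came mainly from library 2, 19 of 70 (27.1%) against 2 of 28 in library 1 (7.14%). Cluster 28, led by the secreted-protein genes Bpifb3 and Bpifb6, had 15 of 78 (19.2%, 11.2 to 29.7%) and 10 (12.8%), at a median depth of 14045 UMIs before thinning. Among classes with a name, bone and cartilage-like cells had 2 of 24 (8.33%, 1.03 to 27.0%), from library 2 alone. T and NK-like cells had 6 of 96 (6.25%), dendritic-like 4 of 71 (5.63%), macrophage and monocyte-like 6 of 145 (4.14%) and gland-like cells 9 of 262 (3.44%). All mitotic-positive T and NK-like (6 of 65, against 0 of 31), macrophage and monocyte-like (6 of 97, against 0 of 48) and mature neutrophil-like cells (6 of 167, against 0 of 52) were from library 2, with upper limits in library 1 of 11.2%, 7.40% and 6.85%. Without thinning, mature neutrophil-like cells were near equal, with 4 of 85 in library 1 (4.71%) and 14 of 244 in library 2 (5.74%). T and NK-like and macrophage and monocyte-like cells still had 0 of 45 and 0 of 55 in library 1. Sustentacular-like cells, which support and ensheathe the neurons, had 9 of 1673 (0.538%, 0.246 to 1.02%), at the level of the background.

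Of the 600 mitotic-positive cells, basal classes held 358 (59.7%, 55.6 to 63.6%), blood classes 109 (18.2%, 15.2 to 21.5%), other named classes 33 (5.50%) and unnamed clusters 100 (16.7%). Basal classes were 16.4% of the thinned cells, blood classes 10.3%, other named classes 53.2% and unnamed clusters 20.2%. Globose basal-like cells alone held 333 (55.5%), granulocyte precursor-like 47 (7.83%), B lineage-like 40 (6.67%), horizontal basal-like 25 (4.17%) and cluster 21 held 53 (8.83%). Counting clusters 19 and 21 with the blood would raise the blood share to 30.5%. When the cycle genes were allowed into the clustering, most dividing cells formed clusters that met no name, and the basal classes held 12% of mitotic-positive cells and 30.7% of the few globose basal-like cells left were mitotic-positive. At a coarser clustering (resolution 0.6) the basal and blood classes held 33.7% and 32.8%.

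Mitotic-positive cells were the deeper cells in most classes. Their median was 10569 UMIs against 7829 in the other globose basal-like cells, 15323 against 8257 in granulocyte precursor-like, 7604 against 3670 in cluster 19 and 29841 against 9722 in gland-like cells. Thinning sets the UMIs of all cells equal but not the RNA content or doublets behind them, and their part was not tested.

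The next question was whether the replication and the mitotic genes are on in the same cells. Of 443 globose basal-like cells, 137 were positive for both lists (30.9%, 26.6 to 35.5%), 59 for the replication list only (13.3%), 196 for the mitotic list only (44.2%) and 51 for neither (11.5%). Most replication-positive cells were mitotic-positive as well, 137 of 196 (69.9%, 63.0 to 76.2%), beside 75.2% of all globose basal-like cells. Of mitotic-positive cells 41.1% were replication-positive, beside 44.2% of all globose basal-like cells. Both shares were no higher than those of all the cells, so the overlap is not a sign that the lists go together. Many cells were thus positive for both lists, with a replication-only group and a larger mitotic-only group on either side. Thinned cells held a mean of 10.4 mitotic and 2.84 replication UMIs, so the cut of 3 UMIs was harder to reach for the replication list. The size of the mitotic-only group depends on this, since 85.0% of globose basal-like cells were replication-positive without thinning. Among the 372 cells with at least 5 UMIs over both lists, the median share of mitotic UMIs was 81.8%. It was under 20% in 21 cells, from 20 to 40% in 38, from 40 to 60% in 41, from 60 to 80% in 69 and at or over 80% in 203. Of those 372 cells, 43 had no replication UMI and 8 no mitotic UMI. These counts depend on the depth, since at full depth 93.7% of replication-positive cells had 3 or more mitotic UMIs, and at 1000 UMIs 49.4%. In globose basal-like cells named from clusters made with the cycle genes the share was 26.0%.

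**Figure D3:**
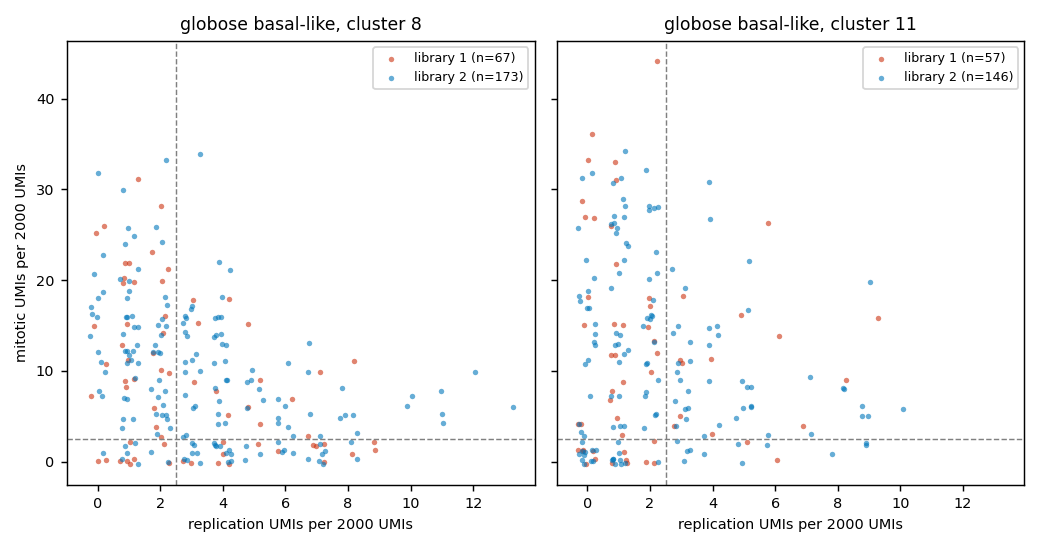
Replication UMIs (x axis) against mitotic UMIs (y axis) per globose basal-like cell after thinning to 2000 UMIs, with cluster 8 on the left and cluster 11 on the right, red for library 1 and blue for library 2. Points are shifted by up to 0.3 UMIs at random, dashed lines mark the cut of 3 UMIs, and the cells spread over both sides of each line, with 137 positive for both lists, 196 for the mitotic list only and 59 for the replication list only.

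The replication-only state lay mainly in cluster 8, with 46 of 240 cells (19.2%, 14.4 to 24.7%) against 13 of 203 in cluster 11 (6.404%, 3.45 to 10.7%). Cells positive for neither lay more in cluster 11, 34 of 203 (16.7%, 11.9 to 22.6%) against 17 of 240 (7.08%, 4.18 to 11.1%). Cells positive for both made up 33.8% and 27.6%, and mitotic-only cells 40% and 49.3%. In the blood, cluster 12 had 26 cells positive for both, 11 mitotic-only and 4 replication-only of 53, and granulocyte precursor-like cells 21, 26 and 13 of 90. Cluster 19 had 18 of its 21 mitotic-positive cells without the replication call.

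Members were then compared between these states, with the state of each cell set by the lists without the gene in question and levels from all UMIs. The MCM genes stepped down from replication-only to both to mitotic-only cells. Mcm6 was at 195, 107 and 29.7 CPM, Mcm3 at 162, 67.0 and 29.6, and Mcm5 at 173, 102 and 41.6. Ung had the widest span of the replication members, at 148, 51.0 and 5.14 CPM. Genes of DNA precursor supply showed another order. Tyms was at 90.4 CPM in replication-only, 189.7 in both and 95.8 in mitotic-only cells, Rrm1 at 71.9, 135 and 88.8, and Rrm2 at 106, 134 and 46.4. For Tyms and Rrm1 the intervals of the cells positive for both stood above the intervals of the other states. Pcna (278, 309.98 and 111 CPM) and Lig1 (185, 193 and 67.4) were alike in replication-only and both, and low in mitotic-only cells.

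Ccne2 was higher in the replication-positive states than in mitotic-only cells, and Ccne1 stood apart only in cells positive for both lists. Ccne1 was at 17.0, 45.7 and 7.03 CPM in replication-only, both and mitotic-only cells, and Ccne2 at 51.1, 66.9 and 5.16. In cells positive for neither, Ccne1 and Ccne2 were at 5.80 and 14.5 CPM. Ccne1 in replication-only cells rests on 9 UMIs. Its interval there, 7.79 to 32.3 CPM, overlaps those of mitotic-only cells (3.93 to 11.6) and of cells positive for neither (0.702 to 20.9). Ccnd1 was at 867 CPM in replication-only cells, 543 in both and 387 in mitotic-only cells, with 342 in cells positive for neither. Since replication-only cells lie mainly in cluster 8, where Ccnd1 is higher, the part of cluster membership in this order was not tested.

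The mitotic members formed a graded series in the log2 ratio of mitotic-only over both, from -0.52 (Cenpm) to 1.24 (Ube2c), after adding 10 CPM. At the low end, Pbk was at 50.2, 271 and 222 CPM and Cenpm at 72.6, 109 and 72.9. Cdk1 (62.7, 286 and 359.6), Top2a (164, 681 and 884), Mki67 (60.8, 303 and 379.7), Birc5 (51.7, 387 and 504) and Aurkb (11.4, 114 and 150.4) differed by between 0.32 and 0.37 on this scale. Between the ends lay Bub1 (0.55), Cks2 (0.59), Cenpe (0.70) and Ccnb2 (0.71). At the high end, Ube2c was at 45.2, 652 and 1549 CPM, Ccnb1 at 24.1, 124 and 301, Cenpf at 81.9, 292 and 655, Aurka at 3.78, 65.6 and 142, and Hmmr at 3.78, 62.4 and 130.5. Their log2 ratios were 1.24, 1.21, 1.14, 1.01 and 0.96. Ccnb1 and Aurka drive entry into mitosis, Hmmr organises spindle microtubules, and Ube2c acts at the end of mitosis. All 22 mitotic members were higher in mitotic-only than in replication-only cells, Cenpm with almost equal values.

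**Figure D4:**
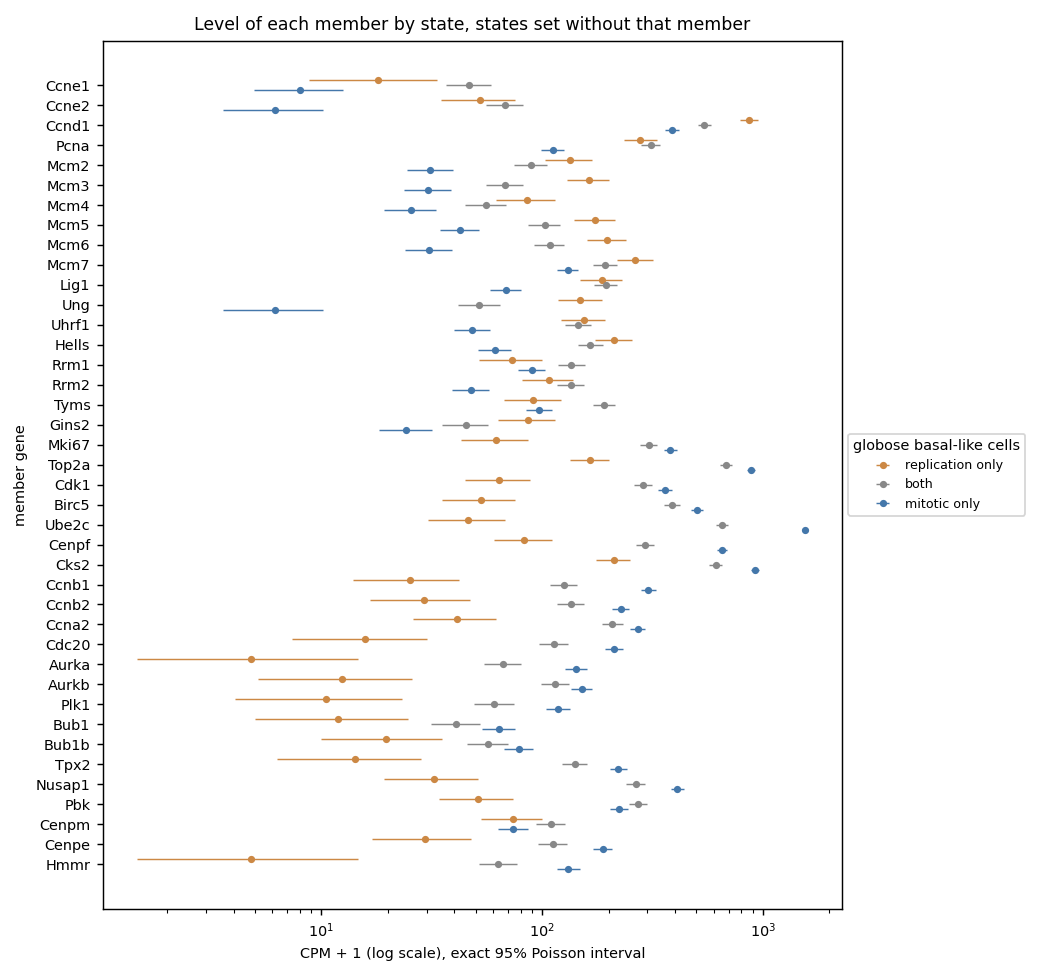
Level of each member (CPM + 1, log axis, exact 95% Poisson interval for counting error) in globose basal-like cells positive for the replication list only, for both lists, or for the mitotic list only, with states set without the plotted gene. MCM genes and Ung fall from the first state to the last, Tyms and Rrm1 peak in cells positive for both, and Ube2c and Ccnb1 are highest in mitotic-only cells.

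Lineage factors also varied between the states. Lhx2, a homeodomain factor of olfactory neurons, was at 79.5 CPM in replication-only cells, 338 in both, 749.9 in mitotic-only and 1229 in cells positive for neither. Neurod1, a factor of neuronal precursors, was at 132.45, 491, 745 and 1282 CPM in the same order, and Ebf1 at 739.9, 870.1, 963 and 1148. Neurod1 is a leading gene of cluster 11, which held 34 of the 51 cells positive for neither and 13 of the 59 replication-only cells. Within clusters the share of thinned cells with a Neurod1 UMI was 90.4% in mitotic-positive and 83.0% in other cells of cluster 11, and 2.82% and 4.76% in cluster 8. This share differed more between the clusters than between mitotic-positive and other cells. The other cells pool the replication-only cells with those positive for neither, so this share cannot show the order of the states within a cluster. Lhx2 was at 22.3 CPM in cluster 8 and 1457 in cluster 11, and Ebf1 at 688 and 1294. For Neurod1, Lhx2 and Ebf1 the part of cluster membership in the order of the states was not tested.

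The members fell sharply at the step from cluster 11 to the 157 intermediate neuronal precursor-like cells (cluster 15). All 40 were lower, 38 of them by 2-fold or more, when 11.3% of all genes were. The mitotic list summed to 6175 CPM in cluster 11 and 189 in the precursors, and the replication list to 1194 and 172 CPM. The median log2 ratio was -5.77 for the mitotic members (-4.77 with the 7 that had no UMI in the precursors at the floor of 3 UMIs) and -3.39 for the replication members. Mki67 was at 329 and 6.29 CPM, Top2a at 786 and 2.52, and Cdc20 at 143 with no UMI in the precursors. Both exceptions to the 2-fold fall were helicase genes, Mcm7 at 148 and 76.8 CPM and Gins2 at 16.1 and 8.81. Ube2c (78.0 CPM), Cenpf (28.9), Cks2 (25.2), Cenpe (13.8) and Birc5 (12.6) were the mitotic members at 10 CPM or more in the precursors. Of 154 precursor-like cells 2 were mitotic-positive (1.30%, 0.158 to 4.61%), and of 216 cells of unnamed cluster 9, led by Crabp1 and Tex15, none was (interval up to 1.69%). Unnamed cluster 16, also led by Tex15 and Crabp1, had 5 of 156 (3.21%, 1.05 to 7.32%) and a mitotic sum of 239 CPM. Its median doublet score was 0.153 in mitotic-positive and 0.119 in other cells, and the part of doublets was not tested. Mcm7 was still at 62.7 CPM in cluster 9, 30.3 in immature and 10.2 in mature olfactory neuron-like cells. Of the 8 members at 10 CPM or more in immature or mature olfactory neuron-like cells, 3 (Mcm6, Mcm7 and Hells) were 2-fold higher in the immature cells and 2 members, Ccnd1 and Cks2, 2-fold lower, where 12.3% and 14.4% of all genes were.

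Most genes of the wider pathway had the same direction as the members at both steps. In globose basal-like over mature neuron-like cells, 34 of 37 other replication genes at 10 CPM or more were 2-fold higher and 0 lower, against 18.6% and 31.4% of all genes, with a median log2 ratio of 3.16. Among them, Dut, which removes dUTP, was at 755 against 138 CPM, Nasp, a histone chaperone, at 350.2 against 24.1, and Rpa3, of the single-strand binding complex, at 299.7 against 156. Of 47 other mitotic genes, 45 were 2-fold higher and 1 lower (Pttg1, at 32.0 against 105 CPM, named here for its direction), against the same shares of all genes, with a median of 5.17 (4.96 with 8 genes at the floor). Hmgb2, a chromatin protein, was at 4100.3 against 279 CPM, Cks1b at 513 against 9.09 and Cenpa, the centromeric histone, at 434 against 3.34. From cluster 11 to the precursors, 33 of 37 other replication genes and 45 of 47 other mitotic genes were 2-fold lower, against 11.3% of all genes, with medians of -2.29 and -4.25.

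Regulators of the cycle were less uniform. Of the 14 cycle transcription factors and retinoblastoma family genes, 11 were 2-fold higher in globose basal-like than in mature neuron-like cells and 2, Rb1 and Rbl2, were lower, against 18.6% and 31.4% of all genes. E2f1 was at 73.8 against 12.8 CPM, E2f4 at 52.3 against 40.05 and E2f7, a repressor of the family, at 45.7 against 2.60. E2f1 was at 41.4 CPM in cluster 8, 126 in cluster 11 and 35.2 in the precursors. Rbl2, a relative of the retinoblastoma protein, was at 9.85 CPM in globose basal-like and 46.0 in T and NK-like cells, and Myc at 17.51 CPM against 122 in B lineage cluster 6 and 89.1 in granulocyte precursor-like cells.

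Of the cycle inhibitors at 10 CPM or more, 5 of 8 were 2-fold higher in globose basal-like cells than in mature neurons and 1, Cdkn1a, was lower, against 18.6% and 31.4% of all genes. From cluster 11 to the precursors 1 of 8, Cdkn2c (p18), was 2-fold lower and 0 higher, against 11.3% and 12% of all genes, so the share lower was near the background. Gadd45g, a stress and differentiation gene, was at 534 CPM in globose basal-like cells, Btg2, an antiproliferative gene, at 267.5 and Gadd45a at 213. Gadd45a was at 20.2 CPM in cluster 8 and 526 in cluster 11, and at 329.7 in the precursors, where the members were low. Cdkn1a (p21) was at 33.9 CPM in globose basal-like cells, 309 in immature neurons, 142 in horizontal basal-like cells and 489 in cluster 19. Btg2 reached 1443 CPM in horizontal basal-like cells. Of the G1 kinases, other D cyclins and their regulators, 5 of 7 were 2-fold higher in globose basal-like cells than in mature neurons and Ccnd3 was lower, against 18.6% and 31.4% of all genes. Of 6, 4 were 2-fold lower in the precursors than in cluster 11, against 11.3% of all genes. Cdk4 was at 748 CPM in cluster 11 and still at 551 in the precursors, and Cdk6 at 49.4 and 17.6.

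The libraries were compared last, as library 2 over library 1 in globose basal-like cells (323 and 125 cells). The mitotic genes were level in these clusters, with a summed 5585 CPM in library 1 and 5625 in library 2 (log2 ratio 0.01, -0.03 to 0.05), and 12 members higher and 10 lower. The replication genes summed to 1226 and 1398 CPM (log2 ratio 0.19, 0.11 to 0.27), with 13 of 15 members higher in library 2 and a median log2 ratio of 0.16. Lig1 was at 90.4 and 130.05 CPM, Uhrf1 at 65.7 and 98.5, and Mcm4 at 28.4 and 47.4, while Mcm7 (167 and 165) and Rrm2 (85.1 and 76.2) were not higher. All 3 G1 cyclins were higher in library 2, Ccnd1 at 403 and 529 CPM, Ccne1 at 18.7 and 22.3 and Ccne2 at 15.7 and 39.3. Ccne2 (21 and 127 UMIs) was the 1 member of 40 past 2-fold, where 1.47% of all genes were higher and 0.72% lower by 2-fold. Of the mitotic genes, Top2a was at 589 and 689 CPM and Cdk1 at 318 and 252, shifts in opposite directions. Neither list was steady across settings. The replication median was 0.06 with at most 5% mitochondrial UMIs, 0.07 on UMIs per cell, and -0.04 with clusters made with the cycle genes. The mitotic median was -0.03, -0.08 and 0.67 under the same settings, so with clusters made with the cycle genes the mitotic list was the one higher in library 2.

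**Figure D5:**
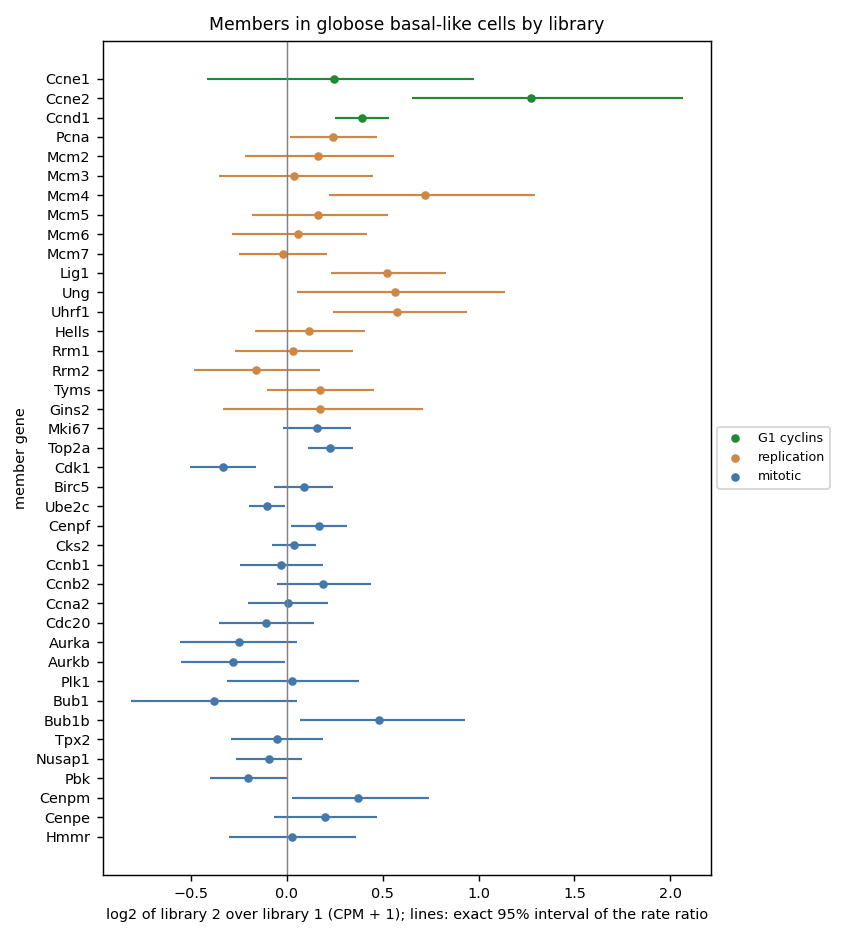
Log2 ratio of library 2 over library 1 (after adding 1 CPM) for each member in globose basal-like cells, with exact 95% intervals of the rate ratio for counting error and colours for the 3 lists. Replication members lie mostly to the right of 0, mitotic members on both sides, and Ccne2 is the 1 member past a ratio of 1.

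Within each globose basal-like cluster the replication list was higher in library 2, with log2 ratios of the summed replication list of 0.14 (0.05 to 0.24) in cluster 8 and 0.30 (0.16 to 0.45) in cluster 11, and of the mitotic list of 0.05 and -0.05. In horizontal basal-like cells the summed lists gave 0.30 (0.10 to 0.49) and -0.03. Of the 26 members at 10 CPM or more there, Lig1 was 2-fold higher (log2 ratio 1.12) and Ccna2 2-fold lower (-1.31) in library 2, where 2.86% and 0.51% of all genes were. In granulocyte precursor-like cells (13 and 77 cells) the replication list was lower in library 2, at 1193 against 1629 CPM (-0.45, -0.62 to -0.27), and the mitotic list gave 0.20 (0.07 to 0.34). In cluster 12 (33 and 169 cells) both lists were higher in library 2, by 0.75 (0.37 to 1.15) and 0.52 (0.31 to 0.73). By cells, 85 of 124 globose basal-like cells of library 1 (68.5%, 59.6 to 76.6%) and 248 of 319 of library 2 (77.7%, 72.8 to 82.2%) were mitotic-positive. Replication-positive cells were 44 of 124 (35.5%, 27.1 to 44.6%) and 152 of 319 (47.6%, 42.1 to 53.3%). These intervals overlap for both lists. Cells positive for both lists were 21.8% (14.9 to 30.1%) and 34.5% (29.3 to 39.98%), also with intervals that overlap. Of the mitotic-positive cells, blood classes held 13 of 150 in library 1 (8.67%, 4.70 to 14.4%) and 96 of 450 in library 2 (21.3%, 17.6 to 25.4%), and granulocyte precursor-like cells numbered 13 and 77. Blood classes made up 7.51% and 11.9% of the thinned cells. With 1 library on each side, differences between animals' sides, dissection, blood content and library handling cannot be told apart.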

How the data were processed

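The deposited matrix holds whole-number UMI counts per gene and cell barcode for both libraries. Cell Ranger 3.0.2 and the build mm10 are named in the submitters' processing notes. Whether the authors equalised depth on joining the libraries was not stated in any source used. Kept cells had at least 1000 UMIs, 500 genes and at most 10% mitochondrial UMIs. Cells were scaled to 10000 UMIs, log-transformed, and clustered on 2000 variable genes without 161 cycle genes, odorant receptor, mitochondrial and Xist genes (30 principal components, 15 nearest neighbours, Leiden resolution 1, seed 0; scanpy 1.11.5, leidenalg 0.10.2, igraph 0.11.9, scikit-learn 1.9.0, scipy 1.17.1, numpy 2.4.6, pandas 2.3.3, Python 3.11.15, matplotlib 3.10.9). A cluster took a name from 3 or more listed markers among its 100 leading genes, unless another class tied there or had more among the first 10. Mature and precursor B cell markers were joined as B lineage, and cluster 21 lost an erythroid name for its platelet genes, both after the clusters were seen. Doublet scores came from a scrublet-type simulation and doublets were kept. Cells were thinned without replacement to 2000 UMIs, leaving out 235 and 644 shallower cells. Ratios are log2 after adding 1 CPM, called at 2-fold with 10 CPM or more in the higher group. The comparison and thinning code was tested on simulated data. Gene coordinates are from GENCODE M21 on GRCm38, which is mm10. Members and lists were chosen with earlier results of these data known. All members were described; of other lists, the 3 highest in globose basal-like cells or any gene 4-fold higher in another class could be named, and other genes named serve as cluster markers. Alternatives were other filters, cluster settings, depths, cuts, pseudocounts and scalings. The use of 1 library alone, of unthinned cells, of cluster 8 alone and of clusters 19 and 21 as blood was chosen after seeing the data. Promoter windows and their letters are from RefSeq (GRCm38.p6), 1 per gene, and 32 of 40 members had one. Intervals are exact Clopper-Pearson or Poisson intervals, and PCR and sampling of cells are outside them.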

Additional observations from a re-analysis of the deposited data

How the results depend on the processing

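No paired analysis was possible because each side gave 1 library and the barcode suffix names no side. Of 142 values under other settings, 92 stayed within the counting interval (within 1.5 times, for the count of members), 49 moved beyond it and 1 reversed (a change of sign counted only where the interval of the reported value excludes 0), and the cause was not tested except where said. Of the 40 members, 39 or 40 stayed 2-fold higher in globose basal-like than in mature neuron-like cells under all alternatives run. The mitotic-positive share of globose basal-like cells (75.2%) was 79.5% with at most 5% mitochondrial UMIs, 61.8% and 80.3% at 1000 and 3000 UMIs, 81.7% and 67.3% from 2 and 5 UMIs, 68.5% in library 1 and 88.6% without thinning. Clusters made with the cycle genes gave 30.7%, since most dividing cells then formed clusters without a name. Basal classes held (59.7%) 63.6% with at most 5% mitochondrial UMIs, 12% with cycle-gene clusters, 33.7% at resolution 0.6, 55.0% from 2 UMIs and 48% without thinning. Blood classes held (18.2%) 23.2% with at most 5% mitochondrial UMIs, 32.8% and 27% at resolutions 0.6 and 1.5, 8.67% in library 1, and 30.5% with clusters 19 and 21 counted in. The share of replication-positive globose basal-like cells that were mitotic-positive (69.9%) was 26.0% with cycle-gene clusters, 49.4% and 82.9% at 1000 and 3000 UMIs, 84.1% and 54.3% from 2 and 5 UMIs, 61.4% in library 1 and 93.7% without thinning. The median log2 ratio of library 2 over library 1 was, for replication members (0.16), 0.057 with at most 5% mitochondrial UMIs, -0.044 (reversed) with cycle-gene clusters and 0.067 on UMIs per cell. For mitotic members (0.01) it was -0.033, 0.67 and -0.085 under the same settings. The median over mature neurons (5.13) was 5.66 with at most 5% mitochondrial UMIs, 5.60 without the cells of highest doublet score, 4.15 with cycle-gene clusters, 5.72 at resolution 0.6, 5.81 and 3.19 with 0.1 and 10 CPM added, and 6.69 on UMIs per cell. Depth limits the calls in the B lineage, where 398 of 538 cells were too shallow for thinning.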
